A study of Mus musculus with 12 samples.

Results

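The ISG15 conjugation system comprised 6 genes, Isg15, Uba7, Ube2l6, Herc6, Trim25 and Usp18, which were taken by gene symbol from the 15002 genes of the tables. All 6 were found, and all 6 passed the default filter on low counts that left 11900 genes for testing. ISG15 is a small protein made of ubiquitin-like folds that interferons induce in most cell types. It is attached to other proteins by an enzyme cascade built like that of ubiquitin: an activating enzyme (E1, Uba7) loads it, a conjugating enzyme (E2, Ube2l6) carries it, and ligases (E3) transfer it to the target. In mouse cells Herc6 is the main ligase, Trim25 has also been described as an ISG15 ligase besides its role in RIG-I signalling, and Usp18 removes ISG15 from its targets and restrains signalling by the type I interferon receptor. Intestinal epithelial cells use this cascade in their defence against viruses and other intracellular pathogens.

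The libraries were made from IEC4.1 cells, an established line of mouse intestinal epithelial cells labelled WT, and asked how siRNA against the lncRNA Nostrill altered gene expression with and without IFN-γ. The libraries fell into 4 conditions of 3 each. The siR_Ctrl cells received a scrambled siRNA and the siR_Nostrill cells a pool of 3 siRNAs against Nostrill. The siR_Ctrl + IFN-γ and siR_Nostrill + IFN-γ cells were transfected in the same way and then given IFN-γ. A figure legend of the study gives this treatment as 1 ng/ml for 4 h. All cells, controls included, were therefore transfected with siRNA, and the labels give 24 h as the time for every library. The level of Nostrill was not analysed here, so the knockdown did not serve as a check of the labels. The study calls the libraries of a group biological replicates, and its statistics section speaks in general of independent experiments or biological replicates. Neither the labels nor its methods say that these libraries came from separate cultures, and p-values measure the spread between these libraries only.

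Libraries held from 17824306 to 19093204 reads assigned to genes. The libraries of a group differed in how their counts depended on transcript length: the deviation of genes from their group mean correlated with gene length with a Spearman coefficient between -0.75 and 0.78 across genes, positive in 6 of 12 libraries. Of 12 epithelial markers listed, 6 were in the tables, and the defining keratins Krt8 and Krt18 stayed at or below 0.28 and 0.1 FPKM in every library, while Krt19 ranged from 0.91 to 2.76 FPKM and Tjp1 from 4.8 to 16.0 FPKM. The 6 fibroblast markers summed to between 370.3 and 653.9 FPKM, led by the collagen genes Col1a1 and Col1a2 and with Thy1 at or below 0.11 FPKM, and 5 leukocyte markers to at most 2.2 FPKM, with Ptprc at 0.01 FPKM or less. The defining keratins Krt8 and Krt18 thus did not bear out the epithelial label of the line. None of the marker genes tested was called in any comparison, and their part in the results below was not tested.

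Isg15 (gene ID 100038882) lies on the minus strand of chr4:156199424-156200818 in GRCm38.p6 and gives by far the shortest transcript of the group, with an effective length of 520 nt. Uba7 (74153) lies at chr9:107975567-107984056, Ube2l6 (56791) at chr2:84798828-84810003, Herc6 (67138) at chr6:57580992-57665136, Trim25 (217069) at chr11:88999403-89020294 and Usp18 (24110) at chr6:121245906-121270917, all on the plus strand. Their effective lengths were 2927 nt for Uba7, 1150.5 nt for Ube2l6, 5046 nt for Herc6, 5344 nt for Trim25 and 1538 nt for Usp18. Promoters of 5 of the 6 genes were at hand in the RefSeq table for GRCm38.p6, each as 250 bases before to 50 bases after the gene's start, and Usp18 was not among them.

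The 5 promoters were searched on both strands for GAAA followed by any 2 bases and GAAA, the core of the interferon-stimulated response element, and for TTCNNNGAA, the gamma-activated site. Isg15 was the single member with a match: this core matched at 3 positions that overlap each other, beginning 78, 72 and 66 bases before the start. Among all 32851 promoters of this length 3.44% held the core and 8.30% held TTCNNNGAA. The promoters of Isg15 and Uba7 are shown because both genes responded to IFN-γ with a similar change in siR_Ctrl cells, with the letters of the core present in the first and in neither orientation of the second. The capitals mark the run covered by the 3 matches, and both sequences read in the direction of the gene.
Isg15, chr4:156200769-156201068, minus strand: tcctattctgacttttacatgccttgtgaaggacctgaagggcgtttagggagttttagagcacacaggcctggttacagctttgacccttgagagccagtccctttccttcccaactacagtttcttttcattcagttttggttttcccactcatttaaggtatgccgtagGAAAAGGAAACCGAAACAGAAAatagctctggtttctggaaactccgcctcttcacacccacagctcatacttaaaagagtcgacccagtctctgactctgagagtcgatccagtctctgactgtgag
Uba7, chr9:107975317-107975616, plus strand: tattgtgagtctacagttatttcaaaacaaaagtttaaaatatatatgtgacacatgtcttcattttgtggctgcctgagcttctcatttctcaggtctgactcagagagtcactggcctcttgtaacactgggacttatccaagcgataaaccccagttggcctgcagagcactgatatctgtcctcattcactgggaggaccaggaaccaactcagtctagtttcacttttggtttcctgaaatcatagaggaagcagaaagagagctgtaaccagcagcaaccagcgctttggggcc
A match describes letters only, and no binding was measured in these libraries. Only exact matches were counted, so near matches in any of the promoters, that of Uba7 included, were not assessed.

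In cells without IFN-γ the members spanned a wide range of levels, given here in FPKM, the read level scaled for transcript length and library size. Isg15 was the most abundant in every library, and in siR_Ctrl cells it measured 51.9, 80.3 and 102.4 FPKM in replicates 1, 2 and 3. These values placed it between the 87.4th and 93.2th percentile of all genes listed. Ube2l6 at 16.9, 17.9 and 19.4 FPKM and Trim25 at 17.0, 12.8 and 14.3 FPKM came next, and their order was not separated beyond the spread of the libraries. Herc6 measured 3.52, 2.90 and 3.07 FPKM, Uba7 2.27, 1.99 and 2.89 FPKM. Usp18 was the lowest, at 0.80, 0.39 and 0.54 FPKM, which rested on 22, 11 and 15 reads. The modifier was thus present at a far higher RNA level than its activating enzyme, its main ligase or its deconjugase before IFN-γ was given.

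The first comparison asked which members IFN-γ induced in cells with the control siRNA. All 6 members rose, where 4.71% of the 11900 genes tested were called higher, and all 6 were separated with no overlap in FPKM, as were 7.5% of genes. The median log2 fold change of the members was 2.16, beside -0.01 for all genes tested.

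Isg15, the modifier, measured 340.2, 487.6 and 298.4 FPKM in siR_Ctrl + IFN-γ cells, so the lowest treated library was far above the highest untreated library. It rose 5.05-fold (log2 fold change 2.34 ± 0.29 SE, edgeR adjusted p = 3.23e-04) and reached at least the 97.9th percentile of genes. Uba7, the E1, measured 12.8, 12.2 and 13.8 FPKM and rose 5.67-fold (2.50 ± 0.12, adjusted p = 4.43e-08). The 3 treated libraries of Uba7 lay close together, with an SD of 0.827 FPKM around a mean of 12.9. Ube2l6, the E2, measured 64.8, 77.2 and 60.3 FPKM and rose 3.93-fold (1.98 ± 0.14, adjusted p = 1.91e-06).

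In siR_Ctrl cells the fitted log2 fold changes of the ligases were smaller than those of the modifier, the E1 and the E2. This order was not tested. It did not hold in siR_Nostrill cells, where Herc6 (1.86) and Trim25 (1.65) stood above Ube2l6 (1.62) and Isg15 (1.31), with Uba7 (2.01) above both ligases. Herc6 measured 9.72, 8.10 and 10.8 FPKM in siR_Ctrl + IFN-γ cells and rose 3.15-fold (1.66 ± 0.10 SE, edgeR adjusted p = 4.27e-07). Trim25 measured 39.8, 32.5 and 45.4 FPKM and rose 2.79-fold (1.48 ± 0.11, adjusted p = 3.73e-06), the smallest change among the members. Usp18, the deconjugase, measured 7.56, 7.77 and 7.94 FPKM, from 215 to 229 reads, and rose 14.1-fold (95% interval 10.3 to 19.1, adjusted p = 1.45e-07), the largest change among the members. Over the alternatives its log2 fold change ran from 2.48, with limma on log2(FPKM + 1), which understates the change of a gene below 1 FPKM, to 4.08. By log2 fold change it ranked 57 among the 11900 genes, Uba7 113, Isg15 120, Ube2l6 152, Herc6 194 and Trim25 212. Herc6 stood above Uba7 in FPKM in each siR_Ctrl library, and Uba7 above Herc6 in each siR_Ctrl + IFN-γ library and in each siR_Nostrill library with or without IFN-γ.

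**Figure D1:**
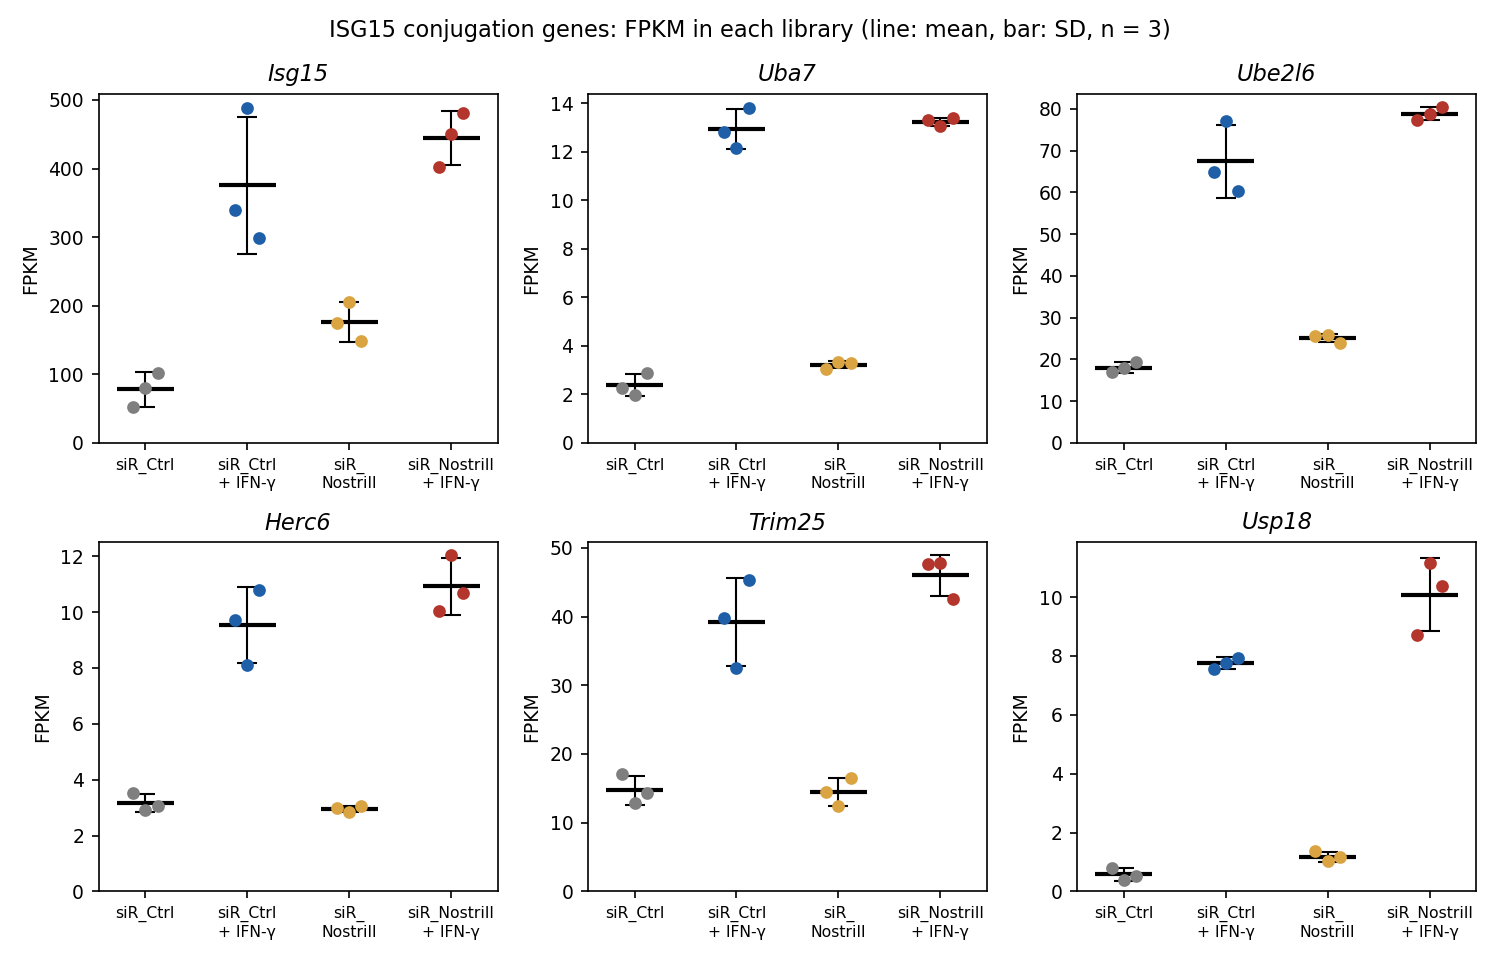
FPKM of the 6 members in each of 12 libraries by condition, with each point 1 library, the line the mean and the bar the SD of 3 libraries; axes start at 0 and differ between genes. The IFN-γ libraries lie above the untreated libraries of the same siRNA for every member, and the untreated siR_Nostrill libraries lie above the siR_Ctrl libraries for Isg15, Uba7, Ube2l6 and Usp18 but not for Herc6 and Trim25.

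The second comparison asked the same of cells with the siRNA against Nostrill. Again all 6 members rose, where 5.24% of genes tested were called higher, and all 6 were separated with no overlap in FPKM, as were 16.3% of genes. The median log2 fold change of the members was 1.76, beside 0.00 (-5.57e-04) for all genes. The siR_Ctrl and siR_Nostrill comparisons share no library, but their difference was tested only in the interaction given further on.

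Isg15 went from 175.3, 205.2 and 148.2 FPKM in siR_Nostrill cells to 402.5, 450.9 and 480.9 FPKM in siR_Nostrill + IFN-γ cells. It rose 2.48-fold (log2 fold change 1.31 ± 0.28 SE, edgeR adjusted p = 0.0156), the smallest change of the 6 here. This call was lost when siR_Nostrill replicate 1 (adjusted p = 0.0537) or replicate 3 (0.0698), or siR_Nostrill + IFN-γ replicate 2 (0.0538) or replicate 3 (0.0590), was left out, with log2 fold changes between 1.16 and 1.34 and adjusted p from 3.55e-08 to 0.0698 over all alternatives. Uba7 went from 3.05, 3.32 and 3.31 FPKM to 13.3, 13.1 and 13.4 FPKM and rose 4.04-fold (2.01 ± 0.11, adjusted p = 2.72e-07). Ube2l6 went from 25.7, 25.8 and 24.0 FPKM to 77.3, 78.9 and 80.5 FPKM and rose 3.08-fold (1.62 ± 0.14, adjusted p = 1.03e-05). Both enzymes were tighter among the treated siR_Nostrill libraries than among the treated siR_Ctrl libraries, with an SD of 0.167 FPKM for Uba7 and 1.62 FPKM for Ube2l6.

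Among the ligases, Herc6 went from 2.97, 2.85 and 3.06 FPKM to 10.03, 12.05 and 10.68 FPKM and rose 3.63-fold (1.86 ± 0.10 SE, edgeR adjusted p = 1.79e-07). Trim25 went from 14.4, 12.45 and 16.45 FPKM to 47.7, 47.8 and 42.6 FPKM and rose 3.15-fold (1.65 ± 0.11, adjusted p = 1.47e-06). For both, every treated library stood above every untreated library. Usp18 went from 1.36, 1.02 and 1.17 FPKM to 8.72, 11.2 and 10.4 FPKM and rose 8.37-fold (95% interval 6.35 to 11.1, adjusted p = 4.24e-07), again the largest change among the members.

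The third comparison asked how the siRNA against Nostrill altered the members before IFN-γ. None of the 6 was called by edgeR, where 0.218% of genes tested were called in either direction, and 4 had an unadjusted p below 0.05, as did 1643 of the 11900 genes. These 4 were the modifier, the E1, the E2 and the deconjugase, all with higher values in siR_Nostrill cells and with no overlap between the groups in FPKM, a pattern seen in 10.2% of genes.

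Isg15 was 2.32-fold higher in siR_Nostrill cells (95% interval 1.5 to 3.58, edgeR adjusted p = 0.151) and ranked 18 among the 11900 genes by log2 fold change. Every siR_Nostrill library, at 148.2 FPKM or more, stood above every siR_Ctrl library, at 102.4 FPKM or less. Usp18 was 2.09-fold higher (95% interval 1.46 to 3.0, adjusted p = 0.132) and ranked 36, on 28 to 38 reads in siR_Nostrill and 11 to 22 reads in siR_Ctrl libraries. Ube2l6 was 1.43-fold higher (1.16 to 1.76, adjusted p = 0.189), at 24.0 FPKM or more against 19.4 or less. Uba7 was 1.38-fold higher (1.15 to 1.65, adjusted p = 0.165), at 3.05 FPKM or more against 2.89 or less. Taken alone, the interval of each of these 4 genes lay above 1-fold, and none passed once p-values were adjusted over all genes.

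The ligases gave values close to no difference. Herc6 had a log2 fold change of -0.07 (95% interval -0.29 to 0.15, edgeR adjusted p = 0.693) and Trim25 one of 0.00 (-0.25 to 0.24, adjusted p = 0.989), and the groups overlapped for both. The sign of either value changed with the processing. The intervals leave room for a rise of up to 1.11-fold for Herc6 and 1.18-fold for Trim25, so a difference of the size fitted for Isg15 or Usp18 lies outside them.

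The calls of this comparison depended on the test. DESeq2's Wald test called the same 4 higher (adjusted p = 0.00397 for Isg15, 0.0178 for Usp18, 0.0238 for Uba7 and 0.0333 for Ube2l6), where it called 1.19% of the genes it tested higher. With the trend on transcript length removed from each library, edgeR called Isg15 (adjusted p = 9.77e-04), Uba7 (0.0295) and Ube2l6 (0.0321) but not Usp18, where 1.62% of genes were called higher. Over all 23 alternatives the adjusted p ran from 9.77e-04 to 0.529 for Isg15, from 0.0178 to 0.495 for Usp18, from 0.0238 to 0.544 for Uba7 and from 0.0321 to 0.548 for Ube2l6, and the log2 fold changes of these 4 stayed positive in each. On the TPM scale, which gives each library the same total, the groups remained separated for Isg15 (217.6 to 261.5 against 90.9 to 147.8 TPM) and Ube2l6 (32.9 to 35.3 against 24.4 to 29.6 TPM), where 4.58% of genes were higher with no overlap and the median log2 fold change of all genes was -0.15. They overlapped for Uba7 (4.06 to 4.86 against 2.71 to 4.18 TPM) and Usp18 (1.30 to 1.81 against 0.53 to 1.4 TPM). In CPM, read counts scaled to the library total, the groups were separated for all 4, beside 9.88% of genes.

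The fourth comparison set siR_Nostrill + IFN-γ against siR_Ctrl + IFN-γ cells. None of the 6 members was called by edgeR, where 0.429% of genes tested were called, and none had an unadjusted p below 0.05, as 1730 of the 11900 genes did. The log2 fold changes were 0.32 for Usp18 (95% interval -0.02 to 0.65, adjusted p = 0.371), 0.18 for Isg15 (-0.42 to 0.79, adjusted p = 0.810), 0.17 for Trim25 (-0.07 to 0.42, adjusted p = 0.513), 0.16 for Ube2l6 (-0.13 to 0.45, adjusted p = 0.629), 0.14 for Herc6 (-0.07 to 0.35, adjusted p = 0.550) and -0.02 for Uba7 (-0.26 to 0.21, adjusted p = 0.941). Values of 5 of the 6 were above 0, where the median log2 fold change of all genes tested was 0.00 (-0.00264). This count by sign was not tested. The groups in FPKM did not overlap for Usp18 (8.72 or more against 7.94 or less) and, narrowly, for Ube2l6 (77.26 or more against 77.20 or less), and 14.6% of genes were higher with no overlap. On the TPM scale, where the share was 14.1% and the median log2 fold change of all genes 0.12, the groups did not overlap for Isg15 (621.95 or more against 613.4 or less), Ube2l6 (115.3 or more against 97.1 or less) and Usp18 (13.5 or more against 12.5 or less). In CPM only Usp18 of the 6 was separated, beside 15.1% of genes. With the length trend removed, edgeR called Isg15 (log2 fold change 0.36, adjusted p = 0.0320) and Ube2l6 (0.27, adjusted p = 0.0153) higher in siR_Nostrill + IFN-γ cells, where 6.19% of genes were called higher. Over all 23 alternatives the adjusted p ran from 0.0320 to 0.988 for Isg15 and from 0.0153 to 0.835 for Ube2l6, and no member had a call toward lower levels.

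The interaction compared the IFN-γ response of siR_Nostrill cells with that of siR_Ctrl cells. In edgeR it called none of the 6 members and 0.0% of the 11900 genes, of which 1277 had an unadjusted p below 0.05. DESeq2 called none of 14992 genes (1485 with such a p), and limma on log2(FPKM + 1) none of 11095 (1310). Of the members, 3 had such a p in edgeR, all with a smaller log2 fold change in siR_Nostrill cells: Isg15 by -1.03 ± 0.40 (SE, unadjusted p = 0.0248), Usp18 by -0.75 ± 0.28 (0.0219) and Uba7 by -0.49 ± 0.16 (0.0102), each with an edgeR adjusted p of 0.430. The size of these differences depended on the processing. Over 22 alternatives it ran from -1.26 to -0.52 for Isg15, from -1.02 to -0.0559 for Usp18 and from -0.65 to -0.12 for Uba7, with the value nearest 0 on TPM for Usp18 and Uba7 and with the length trend removed for Isg15. Ube2l6 stood at -0.35 ± 0.19, Herc6 at 0.20 ± 0.14 and Trim25 at 0.18 ± 0.16. The 3 members with the lowest p were among the 4 whose untreated values were higher in siR_Nostrill cells, and both quantities use the same untreated libraries. Their treated values differed by -0.02 to 0.32 on the log2 scale.

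**Figure D2:**
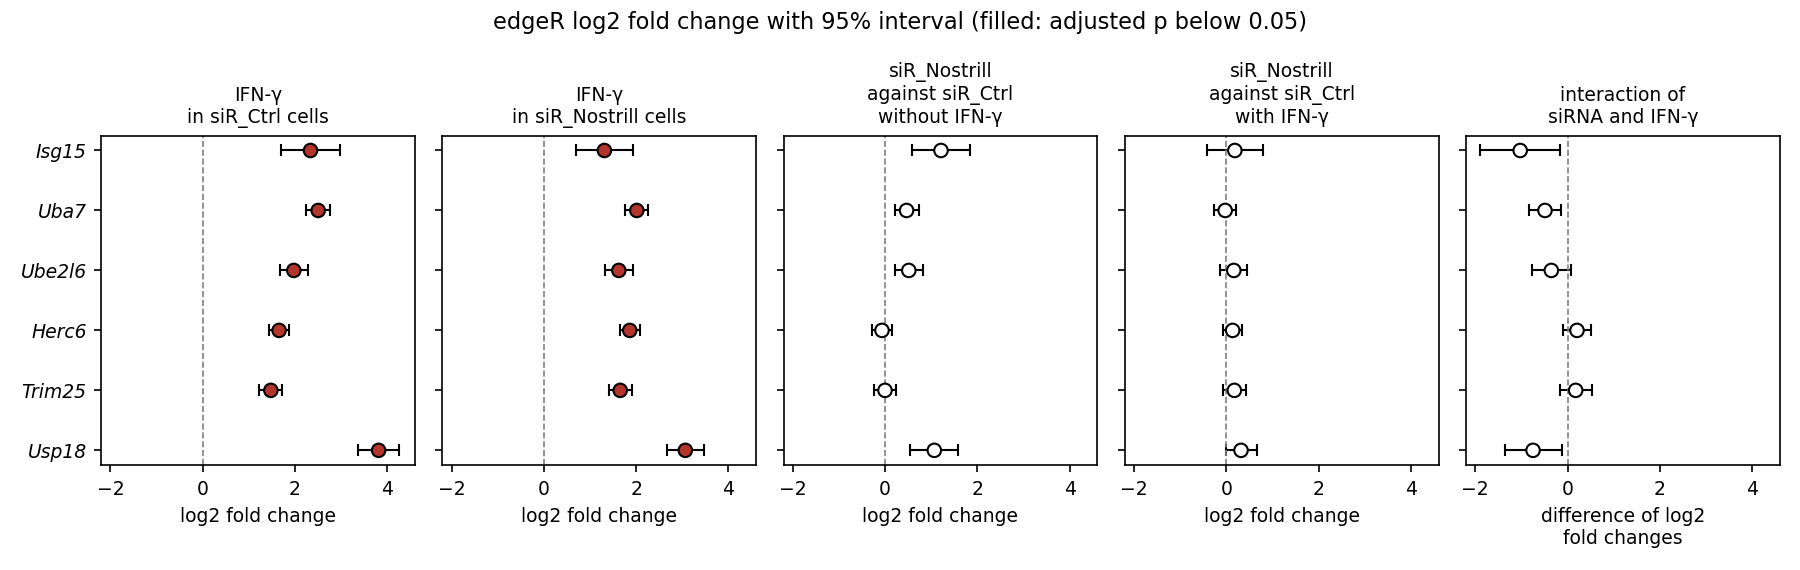
Log2 fold change of each member in 4 comparisons, and the difference between the IFN-γ responses in the fifth panel, from edgeR with 12 libraries in a single fit; bars are 95% intervals and filled points have an adjusted p below 0.05. All 6 points are filled in both IFN-γ panels, from 1.31 to 3.81, and none is filled in the other panels.

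Libraries differed in their length trend, and the spread of the shortest and the longest members followed it. In 3 of 4 groups, all but siR_Ctrl, the 3 libraries ordered by Isg15 CPM (counts scaled to the library total) were in the reverse order of their length coefficient. In siR_Ctrl cells the library with the highest coefficient (0.78, replicate 1) had the lowest Isg15, and Isg15 CPM differed 2.02-fold between the highest and lowest library. Trim25, the longest member, followed the order of the coefficient in 3 of 4 groups, as did Herc6, with a spread of 1.12-fold to 1.39-fold for Trim25 and 1.07-fold to 1.33-fold for Herc6. The part of this trend in the siRNA comparisons was tested only by its removal, as given above.

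**Figure D3:**
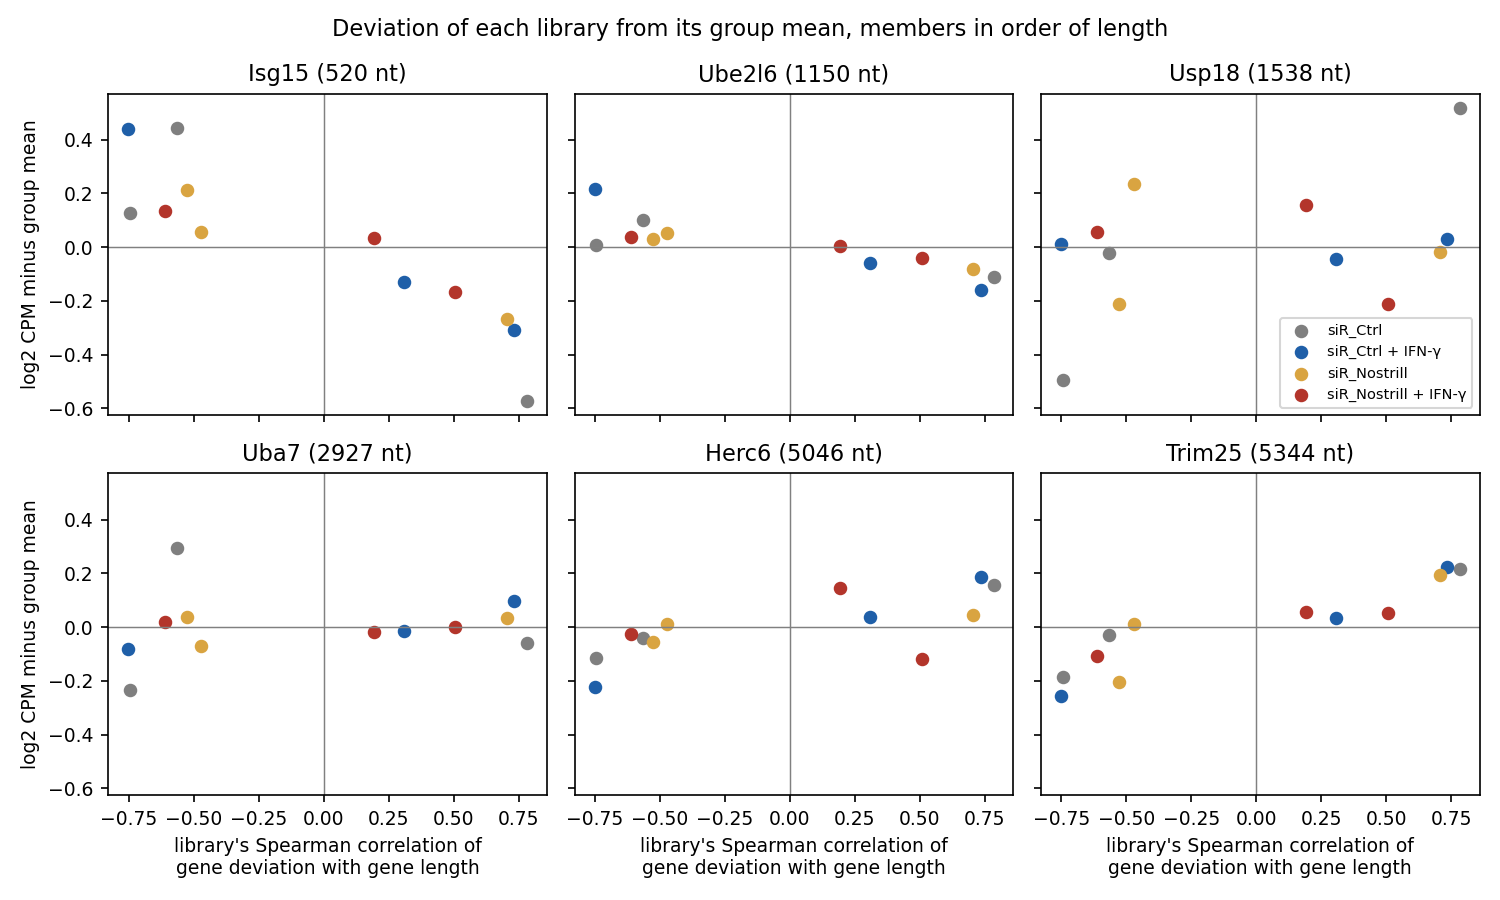
For each member, in order of effective length, the deviation of a library's log2 CPM from its group mean against the library's Spearman coefficient between gene deviation and gene length; each point is 1 of 12 libraries. Isg15 (520 nt) is low in libraries with a high coefficient, and Trim25 (5344 nt) is high in them.

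Ratios within a library compared the ISG15 enzymes with their ubiquitin counterparts, in FPKM, as a description without a test. Uba7 amounted to 1.03%, 1.05% and 1.42% of Uba1, the main ubiquitin E1, in siR_Ctrl cells and to 6.33%, 7.13% and 6.70% in siR_Ctrl + IFN-γ cells. The values were 1.63%, 1.88% and 1.53% in siR_Nostrill and 5.58%, 6.11% and 6.73% in siR_Nostrill + IFN-γ cells, so the E1 of ISG15 stayed a small fraction of that of ubiquitin. Ube2l6 stood much closer to Ube2l3, its closest relative among the ubiquitin E2 enzymes. The ratio was 0.166, 0.160 and 0.178 in siR_Ctrl, 0.595, 0.706 and 0.625 in siR_Ctrl + IFN-γ, 0.215, 0.246 and 0.233 in siR_Nostrill, and 0.681, 0.655 and 0.658 in siR_Nostrill + IFN-γ cells. For both ratios siR_Nostrill libraries lay above siR_Ctrl libraries without IFN-γ and overlapped with them after it.

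Isg15 was in excess of Usp18 in every library. The ratio was 64.9, 206.0 and 189.6 in siR_Ctrl cells, where few Usp18 reads make it uncertain, and 128.9, 201.1 and 126.7 in siR_Nostrill cells. It was 45.0, 62.7 and 37.6 in siR_Ctrl + IFN-γ and 46.2, 40.4 and 46.4 in siR_Nostrill + IFN-γ cells, lower than in any untreated library of the same siRNA.

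**Figure D4:**
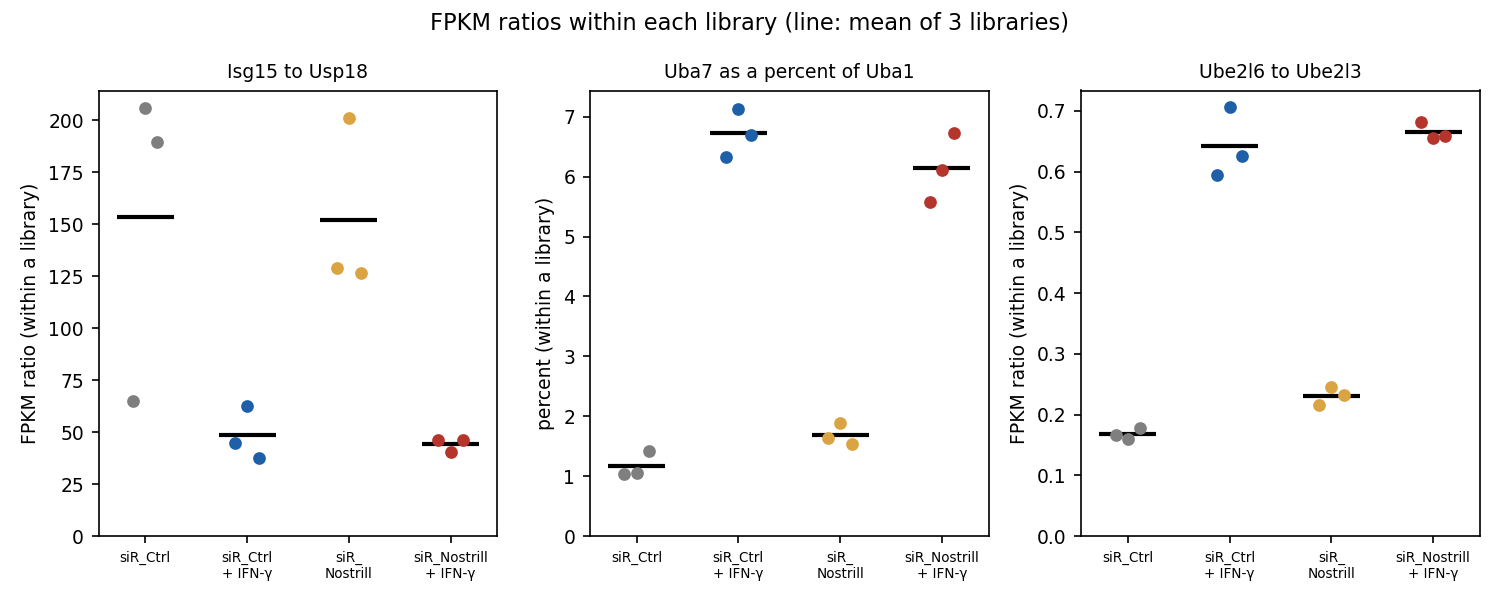
Ratios of FPKM within each of 12 libraries, as a ratio or a percent, by condition; points are libraries, lines the mean of 3, and axes start at 0. Isg15 to Usp18 is lower with IFN-γ, with treated libraries at 62.7 or less, and the other 2 ratios are higher with it.

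Few of the enzymes and modifiers related to the members were called. Of 16 other enzymes linked to ISG15 (Ube2l3, Ube2e1, Ube2e2, Arih1, further HERC ligases and USP proteases among them), 14 were tested. None was called with IFN-γ in siR_Ctrl cells, beside 4.71% of all genes called higher, and 1 was called higher in siR_Nostrill cells, beside 5.24%: Usp14, a proteasome-bound deubiquitinase, by 0.47 ± 0.09 on the log2 scale (SE, edgeR adjusted p = 0.00953, 0.0614 at most over the alternatives). The median log2 fold changes of this list were 0.00 (-0.00498) and 0.07. Ube2l3 had log2 fold changes of 0.04 and 0.10 (edgeR adjusted p = 0.907 and 0.613) and Uba1 of -0.02 and 0.15 (0.950 and 0.330) in siR_Ctrl and siR_Nostrill cells, respectively, with the sign depending on the processing in siR_Ctrl cells for both. None of the 14 was called in the siRNA comparisons or the interaction.

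Among 14 other ubiquitin-like modifiers, all tested, 1 was called higher with IFN-γ in each siRNA condition, near the share over all genes (4.71% and 5.24%). It was Ubd, which encodes the cytokine-induced modifier FAT10. Ubd had 0 or 1 reads per siR_Ctrl library and from 15 to 41 with IFN-γ (edgeR adjusted p = 0.00132), and from 0 to 2 reads per siR_Nostrill library and from 19 to 27 with IFN-γ (adjusted p = 0.00265). Its fitted log2 fold changes of 5.82 and 4.85 were larger than those of any member, but with so few untreated reads they depend on the prior count of the fit. The ubiquitin gene Ubb had a log2 fold change of 0.23 in siR_Ctrl cells (edgeR adjusted p = 0.579) and of -0.08 in siR_Nostrill cells (adjusted p = 0.763), the latter with a sign that changed with the processing. Of 16 E1 and E2 enzymes of these modifiers, none was called with IFN-γ. One, Atg3, an E2-like enzyme of autophagy, was lower in siR_Nostrill + IFN-γ than in siR_Ctrl + IFN-γ cells (-0.75 ± 0.13, adjusted p = 0.0389, 0.198 at most over the alternatives and called in 11 of 23), beside 0.429% of all genes.

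The interferon signalling genes that act upstream of the members were called higher with IFN-γ for 7 of 15 tested in siR_Ctrl cells and 8 of 15 in siR_Nostrill cells, beside 4.71% and 5.24% of all genes. The list's median log2 fold changes were 0.38 and 0.64. Irf1, an early response gene of IFN-γ, rose by 3.57 and 3.23 on the log2 scale, Irf7, which drives interferon genes, by 3.57 and 2.61, Stat2 by 3.18 and 2.91, Irf9 by 2.31 and 1.77, and Irf2 by 1.25 and 1.41. Irf9, a DNA-binding factor of the type I interferon response, was also called higher in siR_Nostrill than siR_Ctrl cells without IFN-γ (0.58 ± 0.09, adjusted p = 0.0357, called in 7 of 23 alternatives), where 0.218% of all genes were called. Ifngr2, a chain of the IFN-γ receptor named here after its value was seen, was the 1 gene of this list called between the siRNA conditions with IFN-γ (0.54 ± 0.09, adjusted p = 0.0375, called in 11 of 23 alternatives), where 0.429% of all genes were called. Ifnb1, the gene of IFN-β, had 0 or 1 reads in every library.

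Genes of proteins reported as ISG15 targets were called higher for 8 of 17 tested in each siRNA condition, beside 4.71% and 5.24% of all genes, with median log2 fold changes of 0.10 and 0.32. The 8 are themselves interferon-induced genes. They included Ifit3 (3.40 and 3.04), Ifit1 (2.67 and 2.41), Samhd1 (1.86 and 2.22), Ifih1 (1.74 and 1.44) and Eif2ak2 (1.56 and 1.49), which act against viral RNA or DNA synthesis or sense viral RNA. Ifit1 was the 1 gene of the list called between siRNA conditions, higher in siR_Nostrill than siR_Ctrl cells without IFN-γ (1.03 ± 0.17 on the log2 scale, edgeR adjusted p = 0.0384, called in 10 of 23 alternatives), beside 0.218% of all genes. No gene of these lists was called in the interaction.

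Genes with the profile most like each member were sought over the 12 libraries by Pearson's r of log2(FPKM + 1), among 10513 other genes with a mean of at least 1 FPKM. These coefficients describe libraries that share the IFN-γ contrast, which dominates them. Isg15 was closest to H2-K1 (r = 0.994), H2-D1 (0.988) and Ifitm3 (0.987). Uba7 was closest to Tap1, Nub1 and Gbp3 (each 0.997), Ube2l6 to Irf7 (0.996), Rtp4 (0.994) and Xaf1 (0.993), and Usp18 to Ifit3 (0.997), Ifi204 (0.995) and LOC102641031 (0.995). Herc6 was closest to Casp12 (0.995), Nlrc5 (0.995) and Cish (0.994), and Trim25 to Stat3 (0.997), Vwa5a (0.995) and Slc11a2 (0.994).

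By the same measure the members fell near each other unevenly. Trim25 ranked 13 for Herc6 and Herc6 ranked 9 for Trim25 (r = 0.992). Usp18 ranked 15 for Ube2l6 and Ube2l6 22 for Usp18 (r = 0.989), and Uba7 ranked 28 for Usp18 (r = 0.988). Isg15 was the least like the others, with r from 0.807 with Trim25 to 0.953 with Ube2l6, and ranked between 165 and 526 for each of them. The length trend was not removed for this measure. Trim25 (5344 nt) and Herc6 (5046 nt) are the longest members and Isg15 (520 nt) the shortest, and the part of length in these ranks was not tested. As these are bulk libraries, a change in the number of responding cells and a change in RNA per cell cannot be told apart for any of these genes.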

How the data were processed

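RNA of 12 IEC4.1 libraries, 3 per condition, was sequenced, and conditions were taken from the sample labels. The authors deposited an estimated count (expected count) of reads per gene, not normalized, with FPKM, which corrects for transcript length and sequencing depth, and TPM. The submitters' processing notes name HISAT2 and GRCm38.p6, while the tool that assigned reads to genes was not given in the sources used here. Counts lay within 0.005 of a whole number for 90.6% to 91.6% of genes and were rounded. The main test was the quasi-likelihood test of edgeR 4.0.16 with TMM factors and its default filter, fitted to the 4 groups together, in R 4.3.3. It was two-sided, with Benjamini-Hochberg adjustment over 11900 genes and a threshold of 0.05. The analysis was first run on simulated counts, which held no length trend. There a log2 change of 1 was called for 76% and 66% of changed genes in the siRNA comparisons without and with IFN-γ. For the interaction the share was 40%. At a log2 change of 0.5 the shares were 14%, 12% and 2%. Libraries of a group differed by more than sampling noise (chi-square between 6.59 and 99.2 per degree of freedom), and each was counted as 1 replicate. Alternatives were DESeq2 1.42.0, its size factors, other filters, only the groups compared, a replicate block, limma 3.58.1 on log2 FPKM or TPM, removal of the length trend (lowess, span 0.3) and leaving out each library. The 6 members and the gene lists were chosen with earlier results of these data known. Named list genes were the called ones with the largest changes, at most 6 a list, with Ube2l3, Uba1 and Ubb, and 3 genes most like each member. Coordinates and promoters come from RefSeq for GRCm38.p6. Effective lengths, also used for the length trend, do not: they were derived from the deposited counts and FPKM, as a median over libraries. Intervals are 95% intervals of the fit. Some listed genes, and a ratio that needed them, are not reported here.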

Additional observations from a re-analysis of the deposited data

How the results depend on the processing

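The 6 calls with IFN-γ in siR_Ctrl cells held in all 23 alternatives, and from 5 to 6 members were called in siR_Nostrill cells when a library was left out. Without IFN-γ the members called between siRNA conditions were 4 with DESeq2, 3 with the length trend removed and 1 (Isg15, adjusted p = 0.0466) with limma on log2(TPM + 1), an alternative chosen after seeing the data, and with IFN-γ 2 with the length trend removed, against 0 in edgeR. The cause was not tested. TPM scaling moved the median of all genes by -0.15 and 0.12 on the log2 scale in these comparisons and by 0.28 in the interaction. Values near 0 changed sign. Trim25 without IFN-γ gave 0.00482 without a filter, 0.00767 at 5 CPM, 0.00113 with only the groups compared, 0.22 with the length trend removed and from -0.0695 to 0.0864 when a library was left out, and Herc6 gave 0.14 with the trend removed. Uba7 with IFN-γ gave 0.0344 and 0.0369 with limma on FPKM with a pseudocount of 1 and 0.1, 0.0344 without a filter and 0.11 on TPM. In the interaction Herc6 gave -0.0626 and Trim25 -0.11 with the trend removed. Over single members, 654 alternative values kept direction and side of the threshold, 10 gained a call, 4 lost a call and 16 changed sign. Same-numbered libraries of different groups did not all deviate together (correlations from -0.49 to 0.73, 8 of 18 pairs over 0.1). Differently numbered libraries with like length coefficients (0.78 and 0.73) also correlated, such as siR_Ctrl replicate 1 and siR_Ctrl + IFN-γ replicate 3 (0.77). These correlations therefore cannot decide whether the numbers pair the libraries. The replicate block left 6, 6, 0, 0 and 0 members called. Over all genes, calls ranged from 329 to 1323 (main 649) with IFN-γ in siR_Ctrl cells, 491 to 2258 (807) in siR_Nostrill cells, 0 to 408 (26) and 0 to 1537 (51) for the siRNA without and with IFN-γ. Usp18 without IFN-γ rests on 11 to 38 reads a library, which limits its precision.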
